A study of Mus musculus with 9 samples.

Results

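Nicotinic acetylcholine receptors are ion channels of the nerve cell and muscle membrane, and the RNA of 6 of their subunit genes was followed here in embryonic mouse cortex of wild type and of mutants of the ISWI chromatin remodelling ATPases Smarca1 and Smarca5. The genes were given by name: Chrna5, Chrna3 and Chrnb4, which lie side by side on chromosome 9, and Chrna4, Chrna7 and Chrnb2, which lie on other chromosomes. They are 6 of the 35498 genes in the transcript tables, and all 6 passed the filter on low counts. They were chosen by their estimated read counts in the same 9 libraries over the 3 genotypes, so their own differences between genotypes are given as a description, without a test.

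The study measured RNA by sequencing in 9 libraries made from cortical whole tissue of C57Bl/6 mice at E13.5, when the cortical wall consists of dividing progenitors and the first neurons. There were 3 groups of 3 libraries. WT embryos were labelled Smarca1 +/+; Cre -/-. Smarca1 KO embryos were labelled Smarca1 -/-; Cre -/-. DKO embryos were labelled Smarca1 -/-; Cre +/- and are, by the series' design text, the double knockout of Smarca5 and Smarca1, so Smarca1 KO and DKO share the loss of Smarca1 and differ in Cre. Which promoter drives Cre, what it deletes and whether the groups without Cre carry altered Smarca5 alleles is not given in the sources used here. Smarca5 and Smarca1 encode the ATPases SNF2H and SNF2L, which slide and space nucleosomes.

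A nicotinic receptor is built from subunits arranged around a central pore that lets cations through when acetylcholine binds. In the brain the best known heteromeric form joins Chrna4 and Chrnb2 subunits and binds nicotine with high affinity, while Chrna7 subunits form a homomeric channel with high calcium permeability. Chrna3 and Chrnb4 subunits form the main receptor of autonomic ganglia and of the medial habenula, and Chrna5 is an accessory subunit that joins receptors already holding another alpha and a beta subunit. In young cortex these channels are known for early depolarising responses to acetylcholine, before most synapses have formed.

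The libraries held 27466225 to 46007718 counts summed over genes. Libraries of 1 group differed by more than sampling noise, with a chi-square per gene of 3.58 to 22.64 between replicates, so each was counted as its own sample. No label says whether replicates are separate embryos, so the p-values below measure the spread among these libraries, which may be technical in part. Smarca5 RNA fell in DKO, from 262.0 to 270.7 CPM in WT and 212.2 to 245.8 in Smarca1 KO to 77.2 to 84.4 in DKO, where CPM is a gene's counts relative to the library's total, scaled by TMM (adjusted p = 2.05e-06 against WT and 2.99e-06 against Smarca1 KO, edgeR's quasi-likelihood test with Benjamini-Hochberg adjustment). Smarca1 RNA was 36.4 to 37.8 CPM in WT and 35.3 to 43.8 in Smarca1 KO, so its level does not separate the groups and checks no label. Libraries Smarca1 KO replicate 1 and DKO replicate 1 had the highest sums of 8 meningeal and mesenchymal marker genes, at 630.9 and 690.9 CPM. The WT libraries held 468.9 to 557.6 CPM and the remaining Smarca1 KO and DKO libraries 279.6 to 308.4. Without Smarca1 KO replicate 1 and DKO replicate 1, Chrna3 had a log2 fold change of 1.48 in DKO against Smarca1 KO and 1.88 against WT. Each mutant library kept in that fit lies below WT in this sum, so it does not even out the sum against WT.

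By the GENCODE M21 annotation of GRCm38, Chrna5 (ENSMUSG00000035594.10) runs on the plus strand at chr9:54980880-55007779. Chrna3 (ENSMUSG00000032303.7) follows on the minus strand at chr9:55010111-55026562, so the ends of Chrna5 and Chrna3 face each other. Chrnb4 (ENSMUSG00000035200.7) is next, also on the minus strand, at chr9:55028154-55048779. The sequences before the Chrna3 start and before the start of the Chrna5-204 transcript are shown because these were the 2 subunit genes of the cluster whose DKO libraries lay above those of both other groups. Both are from RefSeq on GRCm38.p6, are written 5′ to 3′ on the strand of the gene and stop at the last base before the GENCODE transcript. Capitals mark the GC box GGGCGG, a motif of Sp-family factors, read on either strand (CCGCCC on the other).
Chrna3 (chr9:55026563-55026812, minus strand): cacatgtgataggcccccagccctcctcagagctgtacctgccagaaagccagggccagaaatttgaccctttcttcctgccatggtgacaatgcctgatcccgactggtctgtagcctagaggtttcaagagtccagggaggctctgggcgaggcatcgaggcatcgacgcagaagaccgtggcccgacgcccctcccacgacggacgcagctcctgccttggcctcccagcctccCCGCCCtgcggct
Chrna5 (chr9:54981238-54981465, plus strand): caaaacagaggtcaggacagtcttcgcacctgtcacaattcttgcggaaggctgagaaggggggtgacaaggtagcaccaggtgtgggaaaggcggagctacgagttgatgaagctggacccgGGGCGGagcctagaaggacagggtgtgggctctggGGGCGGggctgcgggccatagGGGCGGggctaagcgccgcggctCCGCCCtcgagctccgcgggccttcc
The 250 bases upstream of Chrna3 held 1 GC box, close to the start, and the 228 bases upstream of Chrna5-204 held 4. Of 32851 RefSeq promoter windows of 250 bases, 32.7% held at least 1 GC box, so its presence is common. The TATA box TATAAA, found on either strand in 12.4% of all windows, and the CCAAT box, found in 33.8%, were in neither gene's full 250-base window. The Chrna3 window had 63.2% G and C, above 79.2% of all windows, and the Chrna5 window 65.2%, above 83.0%. RefSeq's other Chrna5 window, at chr9:54980630-54980879 just before the annotated start of the gene, held 0 GC boxes and had 40.0% G and C. These letters describe the window and show no binding.

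Chrna3, the ligand-binding subunit of the ganglionic type of receptor, was the member with the largest difference between genotypes. Its level was 2.64, 2.32 and 2.81 CPM in WT replicates 1 to 3. In Smarca1 KO it was 4.60, 3.07 and 3.83 CPM. In DKO it was 11.0, 9.71 and 9.45 CPM. The groups did not overlap: every WT library lay below every Smarca1 KO library, and every DKO library was at least 9.45 CPM. The means were 2.59 ± 0.247 CPM in WT, 3.83 ± 0.765 in Smarca1 KO and 10.1 ± 0.854 in DKO (SD, n = 3 each). The log2 fold change of DKO was 1.39 ± 0.16 (SE) against Smarca1 KO and 1.96 ± 0.16 against WT, or 2.62-fold and 3.88-fold, and that of Smarca1 KO against WT was 0.57 ± 0.17. These values rest on 67 to 103 counts per library in WT, 90 to 177 in Smarca1 KO and 300 to 434 in DKO. Both DKO comparisons share the DKO libraries, and every comparison here shares libraries with the other two.

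**Figure D1:**
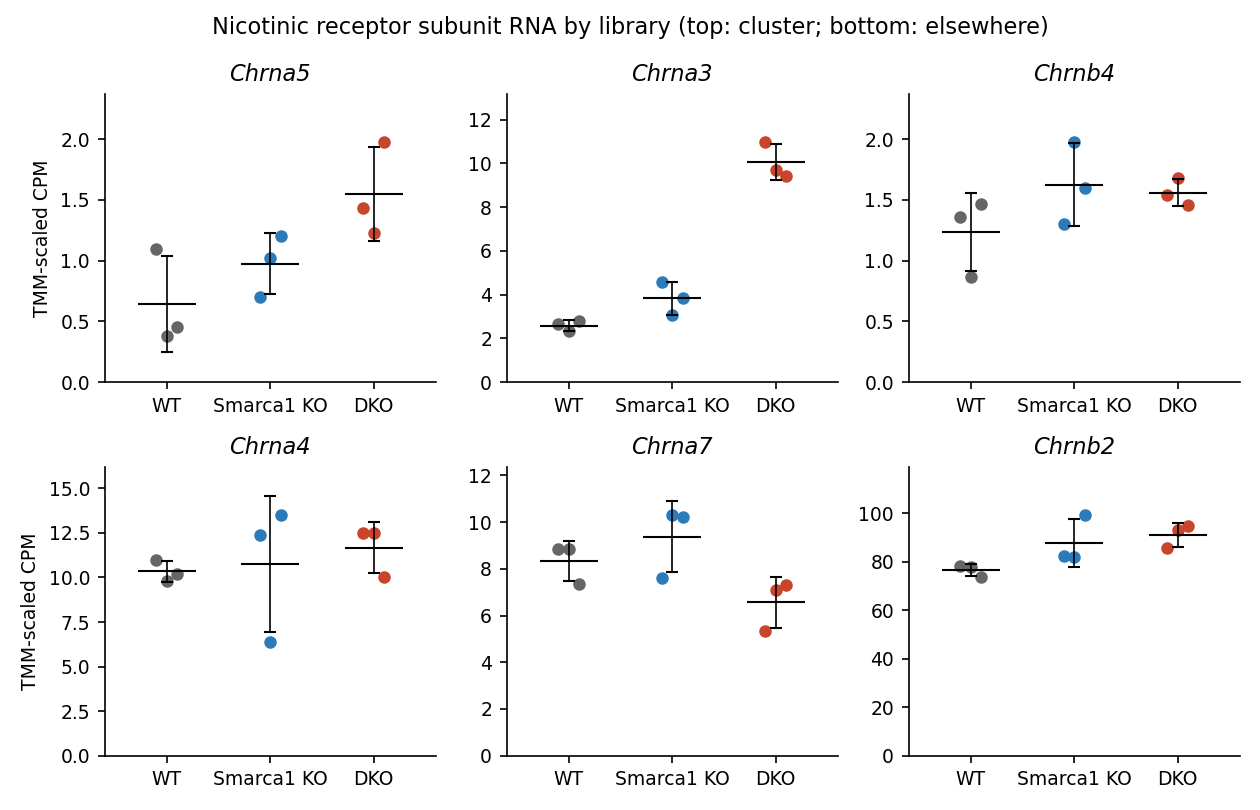
TMM-scaled CPM (vertical axis, starting at 0, with its own scale in each panel) of the 6 subunit genes in each of the 9 libraries (points), with the group mean (line) and SD (bars), n = 3 a group. Chrna3 in DKO lies between 9.45 and 11.0 CPM, above the 4.60 CPM of the highest other library, while Chrna4 spreads from 6.38 to 13.5 CPM within Smarca1 KO alone.

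GENCODE gives Chrna3 a pair of protein-coding transcripts that share their first 4 introns. Chrna3-201 has 6 exons and 4358 bases. Chrna3-202 has 5 exons and 2414 bases, and its last exon (chr9:55014230-55016148) starts at the same splice site as the fifth exon of Chrna3-201 but runs on past that exon's end. It therefore lacks the last exon of Chrna3-201 (chr9:55010111-55012929), which holds the stop codon of the longer form and its 3′ UTR. Chrna3-201 stood at 1.71, 1.49 and 2.12 CPM in WT, 3.58, 2.36 and 2.41 in Smarca1 KO and 9.38, 7.91 and 7.77 in DKO. Chrna3-202 stood at 0.922, 0.824 and 0.686 CPM in WT, 1.02, 0.704 and 1.41 in Smarca1 KO and 1.65, 1.81 and 1.69 in DKO. Both forms were thus highest in the DKO libraries, and the share of Chrna3-201 in the gene's counts was 81.3% to 85.0% there, against 63.1% to 77.8% in Smarca1 KO and 64.3% to 75.6% in WT. The share rests on Salmon's division of reads between forms, with 20.6 to 77.6 estimated counts for Chrna3-202 per library, and was not tested.

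Chrna5, the accessory subunit, had low levels in every library. The WT libraries held 1.10, 0.381 and 0.458 CPM. In Smarca1 KO it was at 0.702, 1.02 and 1.20 CPM. In DKO it was at 1.43, 1.23 and 1.98 CPM. The DKO libraries lay above all others, by a margin of 1.23 against 1.20 CPM for the nearest pair, and WT overlapped with Smarca1 KO. The log2 fold change of DKO was 0.69 ± 0.39 (SE) against Smarca1 KO and 1.23 ± 0.40 against WT. The counts behind it were 11 to 91 per library, and WT replicate 1, with 43 counts, was the highest of its group. Without WT replicate 1 the log2 fold change of DKO against WT was 1.88, and that of Smarca1 KO against WT moved from 0.54 to 1.19. Salmon divided these reads among 3 coding forms without a steady pattern: Chrna5-204, which begins at chr9:54981466 within the gene, took at least 31.9% of them in each library, and Chrna5-201, the form with the most upstream start of the 3, was at 0 in 7 of the 9 libraries.

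Chrnb4, the beta subunit that pairs with Chrna3 in ganglionic receptors, did not follow it. It was at 1.36, 0.867 and 1.47 CPM in WT. In Smarca1 KO it was at 1.30, 1.98 and 1.60 CPM. In DKO it was at 1.54, 1.68 and 1.46 CPM. The 3 groups overlapped, and the highest library was a Smarca1 KO library. The log2 fold change was -0.056 ± 0.24 (SE) for DKO against Smarca1 KO and 0.33 ± 0.25 for DKO against WT, on 25 to 67 counts per library. An annotated antisense gene, Gm47877, overlaps Chrnb4, and its own RNA was not analysed here.

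Among the subunits elsewhere, Chrnb2, the beta subunit of the high-affinity brain receptor, had the most RNA. It lies on the minus strand at chr3:89746195-89764632 (ENSMUSG00000027950.7). Its level was 78.4, 77.8 and 73.5 CPM in WT, 82.2, 81.9 and 99.2 in Smarca1 KO, and 85.5, 93.0 and 94.9 in DKO. Each WT library was below each library of the mutant groups, and the mutant groups overlapped. The log2 fold change was 0.0555 ± 0.076 (SE) for DKO against Smarca1 KO, 0.25 ± 0.076 for DKO against WT and 0.20 ± 0.076 for Smarca1 KO against WT. The value of Chrnb2 is less certain than its counts of 2244 to 4356 imply, because 15.0% of its 31-base words also occur in transcripts of other genes, most of them (1256 words) in Adar, which overlaps it on the opposite strand. Adar reached 137.2 CPM, and whether the counting used strand is not given in the sources used here.

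Chrna4, the alpha partner of Chrnb2, lies on the minus strand at chr2:181018380-181043546 (ENSMUSG00000027577.14). It was at 11.0, 9.81 and 10.2 CPM in WT. In Smarca1 KO it was at 12.4, 6.38 and 13.5 CPM. In DKO it was at 12.5, 12.5 and 10 CPM. The groups overlapped, and Smarca1 KO replicate 2 was the lowest of the 9 libraries. The same library had the lowest summed level of 8 Cajal-Retzius cell markers, 359.3 CPM against 389.4 to 516.6 in the others. It was also the lowest in summed markers of habenula and diencephalon (84.6 against 89.6 to 108.9 CPM). The same held for endothelial and mural markers (218.5 against 230.9 to 346.7 CPM). The part of any of these differences in the Chrna4 value was not tested. The log2 fold changes were 0.11 ± 0.23 (SE) for DKO against Smarca1 KO, 0.17 ± 0.23 for DKO against WT and 0.059 ± 0.23 for Smarca1 KO against WT. One form, Chrna4-201, took at least 98.0% of the counts in each library.

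Chrna7, the subunit of the homomeric channel, was the member that was lower in DKO. It lies on the minus strand at chr7:63098692-63212569 (ENSMUSG00000030525.8). Its level was 8.83, 8.84 and 7.35 CPM in WT and 7.61, 10.3 and 10.2 in Smarca1 KO. In DKO it was 5.32, 7.09 and 7.32 CPM. The highest DKO library lay just below the lowest WT library, 7.32 against 7.35 CPM. The log2 fold change was -0.51 ± 0.16 (SE) for DKO against Smarca1 KO and -0.34 ± 0.16 for DKO against WT. Chrna7 shared no 31-base word with another gene, and Chrna7-201 held 92.3% to 97.5% of its counts.

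**Figure D2:**
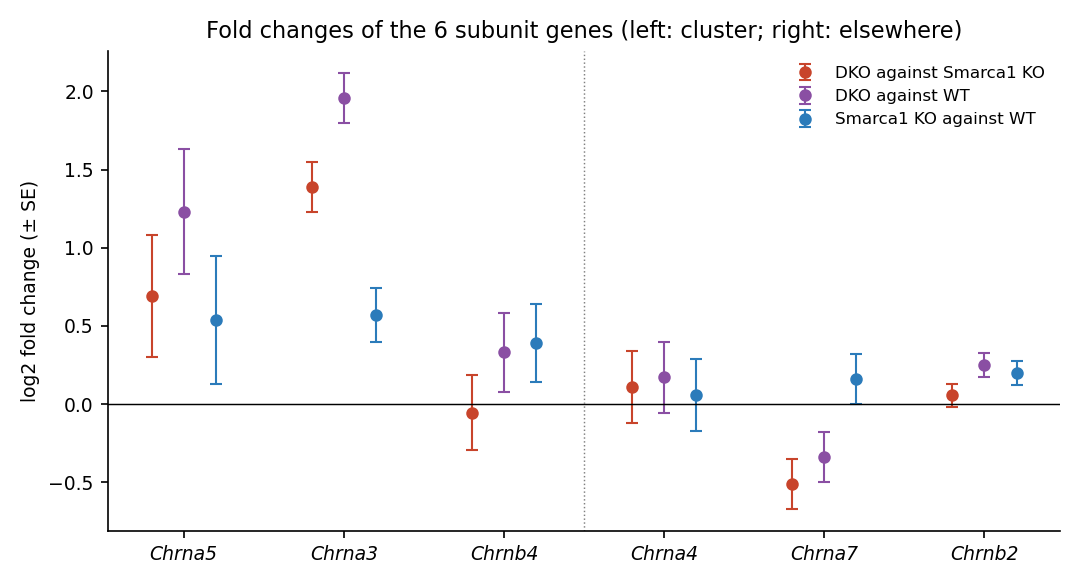
Log2 fold change (vertical axis) with its SE (bars) of the 6 subunit genes in the 3 comparisons of the fit to all 9 libraries. Chrna3 lies at 1.39 and 1.96 in the DKO comparisons, Chrnb4 and Chrna4 stay within 0.33 of 0 there, and Chrna7 lies below 0 at -0.51 and -0.34.

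Read as counts, 1 of the 6 members (Chrna3) was past an adjusted p of 0.05 in DKO against Smarca1 KO, where 4.39% of the 15773 tested genes were (1.73% higher, 2.66% lower). In DKO against WT it was again Chrna3 alone, where 12% of tested genes were (5.61% higher, 6.35% lower). No member was past it in Smarca1 KO against WT by edgeR's quasi-likelihood test, where 0.336% of tested genes were (0.139% higher, 0.197% lower). At an unadjusted p under 0.05 the members numbered 2 in that comparison, and DESeq2 called 0. DESeq2 called 3 of the 6 in DKO against WT and 1 of the 6 in DKO against Smarca1 KO. Libraries did not overlap for 3 of the 6 members in DKO against Smarca1 KO (2 higher, 1 lower), where that held for 20.5% of tested genes (9.72% higher, 10.7% lower). They did not overlap for 4 of the 6 in DKO against WT (3 higher, 1 lower), where it held for 41.3% (20.9% higher, 20.4% lower). In Smarca1 KO against WT the count was 2 of the 6, both higher, where it held for 26.1% (12.5% higher, 13.6% lower). The members were chosen with these contrasts known, so nothing is read from these shares. The median log2 fold change of the 6 was 0.084 in DKO against Smarca1 KO and 0.292 in each comparison with WT, beside 0.004, 0.008 (DKO) and 0.010 (Smarca1 KO) over all genes tested. In bulk tissue, more cells that express a gene and more RNA per cell cannot be told apart.

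Levels of different genes were compared per transcript length, as the deposited TPM (Salmon's length-scaled transcript abundance) summed to the gene. In WT the order was Chrnb2 at 22.1 ± 0.995 TPM (SD, n = 3), Chrna7 at 7.78 ± 0.867, Chrna4 at 4.41 ± 0.297, Chrna3 at 1.43 ± 0.103, and Chrnb4 and Chrna5 at 0.621 ± 0.160 and 0.612 ± 0.447. The last pair did not differ beyond their spread. In Smarca1 KO the order was Chrnb2 (25.2 ± 3.11), Chrna7 (8.72 ± 1.38), Chrna4 (4.92 ± 1.79), Chrna3 (2.05 ± 0.437), Chrna5 (0.899 ± 0.168) and Chrnb4 (0.815 ± 0.156), and again the last pair did not differ beyond their spread. In DKO, Chrna7 (6.12 ± 1.07), Chrna4 (5.10 ± 1.06) and Chrna3 (5.01 ± 0.334) did not differ beyond their spread, and in DKO replicate 1 Chrna3 was the highest of the 3, at 5.38 against 4.93 for Chrna4 and 4.90 for Chrna7. Chrnb2 (26.2 ± 1.67) lay above them, and Chrna5 (1.52 ± 0.380) and Chrnb4 (0.780 ± 0.0533) below. The ratio of Chrna4 to Chrna3 was 3.02, 3.10 and 3.14 in the WT libraries, 2.23, 1.91 and 2.93 in Smarca1 KO, and 0.915, 1.27 and 0.874 in DKO. Thus Chrna4 RNA was more abundant than Chrna3 RNA in each WT and Smarca1 KO library, and in 1 of the 3 DKO libraries.

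The summed TPM of the 6 genes was 37.0 ± 2.06 in WT, 42.6 ± 5.47 in Smarca1 KO and 44.7 ± 2.67 in DKO (SD, n = 3). The chromosome 9 cluster supplied 5.61% to 8.46% of it in WT, 8.36% to 9.43% in Smarca1 KO and 14.9% to 18.1% in DKO. Chrna3 alone supplied 3.56% to 4.21%, 3.98% to 5.96% and 10.3% to 12.9%. Chrnb2 kept a similar share in each group, 58.6% to 61.0% in WT, 58.8% to 59.4% in Smarca1 KO and 57.5% to 59.8% in DKO. The share of Chrna7 was 19.4% to 22.4% in WT, 17.9% to 24.2% in Smarca1 KO and 11.8% to 14.9% in DKO. Within the cluster the ratio of Chrna3 to Chrnb4 RNA was 2.39 ± 0.527 in WT, 2.64 ± 1.01 in Smarca1 KO and 6.44 ± 0.575 in DKO. The RNA of the ganglionic alpha subunit thus stood further above that of its beta partner in each DKO library than in any other. These shares are arithmetic on the same values that chose the genes and carry no test. They describe RNA, not assembled receptors.

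**Figure D3:**
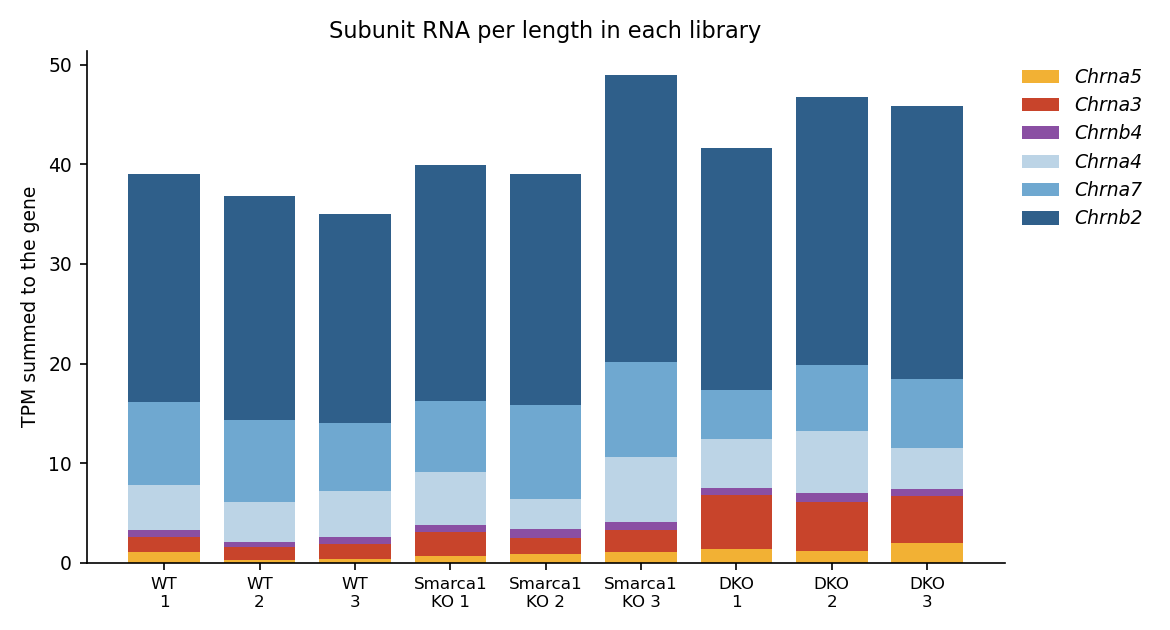
TPM summed to the gene (vertical axis, starting at 0), stacked over the 6 subunit genes, in each of the 9 libraries. The Chrna3 segment makes up 10.3% to 12.9% of the column in the DKO libraries and at most 5.96% in the others, while Chrnb2 makes up 57.5% to 61.0% of each column.

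The genes around the cluster were compared to see whether its surroundings differed between genotypes too. Within 500 kb of the cluster 24 genes were in the tables and 15 were tested, and none was called in any of the 3 comparisons by edgeR's quasi-likelihood test. At an unadjusted p under 0.05 there were 3 in DKO against Smarca1 KO, 4 in DKO against WT and 4 in Smarca1 KO against WT, and DESeq2 called 2, 2 and 0. Their log2 fold changes ran from -0.39 to 0.24 in DKO against Smarca1 KO (median 0.028) and from -0.52 to 0.47 in DKO against WT (median -0.037). The nearest tested genes on the side of Chrna5 were Psma4, a proteasome subunit gene, which in DKO against Smarca1 KO lay at 0.0900 ± 0.057 (SE, with an adjusted p of 0.451), and Hykk, a hydroxylysine kinase gene, at -0.36 ± 0.15 (adjusted p = 0.240). On the side of Chrnb4 the nearest were Ube2q2, at -0.0603 ± 0.049 (adjusted p = 0.573), and Fbxo22, an F-box gene, at 0.0280 ± 0.037 (adjusted p = 0.760). In DKO against WT the same 4 genes lay at 0.0976, -0.52, -0.0763 and -0.0629, with adjusted p of 0.271, 0.0524, 0.317 and 0.279. Ireb2, the iron regulatory protein gene further out on the Chrna5 side, was at -0.0477 and -0.0597, a gene named here after its values were seen. Psma4, Ube2q2 and Fbxo22 share 16.5% to 21.8% of their 31-base words with other genes, so their values are less certain.

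**Figure D4:**
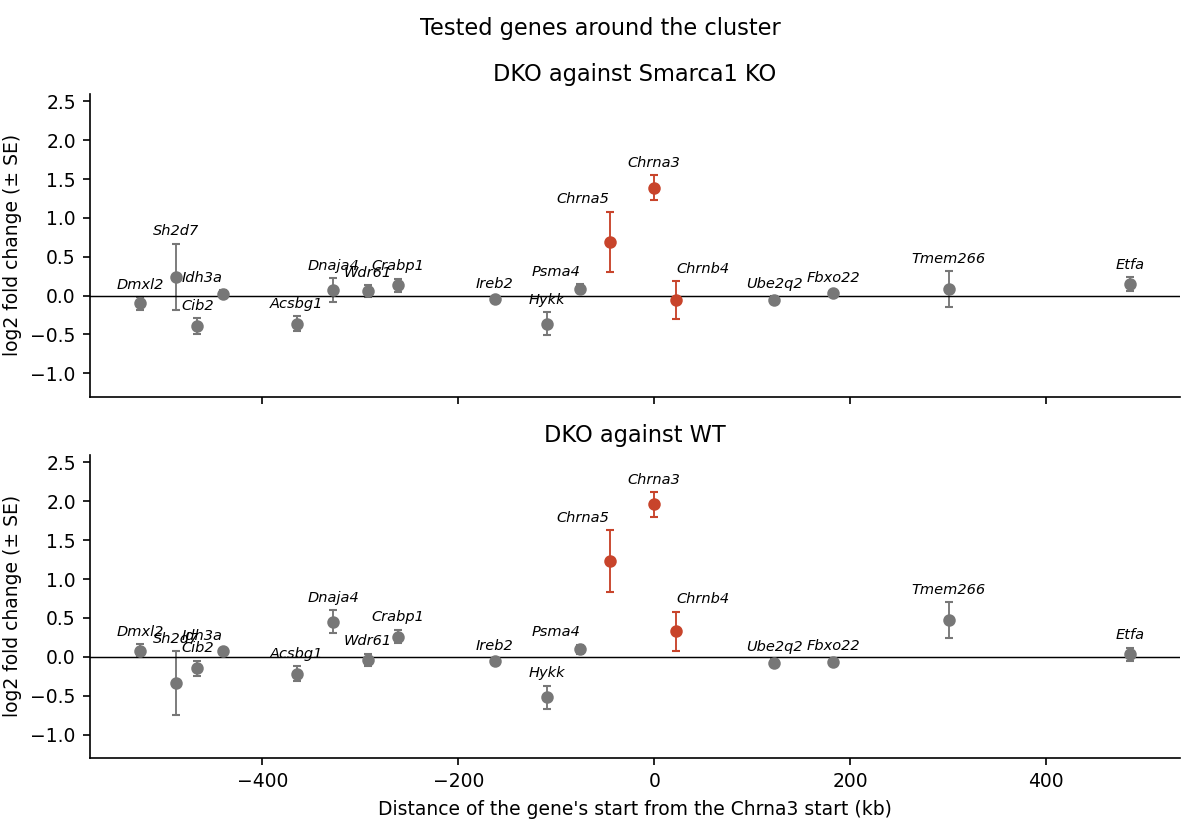
Log2 fold change with SE (vertical axes) of the tested genes around the cluster against the distance of their starts from the Chrna3 start in kb (horizontal axis), for both DKO comparisons. The 3 cluster members are in red and the 15 neighbours in grey: Chrna3 stands at 1.39 and 1.96, and no neighbour is above 0.24 in the upper panel or 0.47 in the lower.

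Calls around the subunits elsewhere are given beside the shares over all tested genes, 4.39% in DKO against Smarca1 KO and 12% in DKO against WT. Whether the counts here differ from those shares was not tested. Of 28 tested genes within 500 kb of Chrna4, Ppdpf fell relative to Smarca1 KO (by -0.25 ± 0.037 on the log2 scale, adjusted p = 0.00702) and relative to WT (-0.20 ± 0.037, adjusted p = 0.0125), and Zbtb46 rose against WT (0.43 ± 0.12, adjusted p = 0.0460). Of 36 around Chrnb2, Efna4, an ephrin ligand gene, and Pbxip1 fell, by 0.47 and 0.35 on the log2 scale against WT (adjusted p = 0.0113 and 0.0174) and by 0.37 and 0.30 against Smarca1 KO (adjusted p = 0.0410 and 0.0481). Of the 2 tested around Chrna7, neither was called in any comparison by edgeR's quasi-likelihood test, neither were under 0.05 before adjustment and DESeq2 called 0. Against WT, Ppdpf lost its call without DKO replicate 2, DKO replicate 3 or WT replicate 3 (adjusted p 0.0507 to 0.0555) and Efna4 without WT replicate 1 (0.0518). The calls of Pbxip1 and Zbtb46, and that of Efna4 against Smarca1 KO, were lost when any of 5 to 8 single libraries was left out (adjusted p 0.0511 to 0.150).

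The other 10 nicotinic subunit genes were at low levels. Chrna1 and Chrnb1, subunits of the muscle receptor, lay at 0.915 to 2.04 and 0.871 to 1.62 CPM, and Chrna2 at 0.102 to 0.510 CPM. These 3 were tested, and edgeR's quasi-likelihood test called none in any comparison, with 0, 0 and 1 at an unadjusted p under 0.05 and 0 by DESeq2 in each. Chrna1 had the smallest p, with an adjusted p of 0.177 in Smarca1 KO against WT, where it differed by 0.68 ± 0.23 (log2, SE). Chrna6, Chrna9, Chrna10, Chrnb3, Chrnd, Chrne and Chrng had at most 7 counts in a library and were not tested. Of 7 skeletal muscle markers, whose sum was 1.65 to 2.95 CPM, 3 were tested and edgeR's quasi-likelihood test called none, with 0 at an unadjusted p under 0.05 and 0 by DESeq2 in each comparison.

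Of 15 genes for receptor assembly factors and for Ly6 proteins, small membrane-anchored proteins of the same fold as snake toxins that bind these receptors, 12 were tested. In DKO against WT 5 of the 12 rose, none fell and 7 were not called, where 5.61% of tested genes rose and 6.35% fell, and the median of the 12 was 0.275 beside 0.008 over all genes. Of the 12 values, 10 lay above 0 and 2 below. In Smarca1 KO against WT the median was 0.183, with 9 values above 0 and 3 below. In DKO against Smarca1 KO it was 0.08, with 7 above 0 and 5 below. This list, like all others, was chosen with earlier results of these data known, so nothing is read from these shares. Tmem35a, which encodes the chaperone NACHO of neuronal nicotinic receptors, had 50.8, 51.0 and 51.2 CPM in WT, 57.9, 57.6 and 65.8 in Smarca1 KO and 66.3, 74.1 and 75.6 in DKO. The 3 groups did not overlap, and its log2 fold change in DKO against WT was 0.50 ± 0.066 (adjusted p = 0.00330). Its call was lost in 1 of 17 alternative fits, the one with a Y-linked covariate.

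The other genes that rose in DKO against WT were Ly6 genes and Vsnl1. Lynx1, a brake on nicotinic receptor gating, had 1.41, 1.42 and 1.21 CPM in WT, 2.08, 1.36 and 2.73 in Smarca1 KO and 2.81, 2.91 and 3.77 in DKO. Its log2 fold change in DKO against WT was 1.23 ± 0.25 (adjusted p = 0.0169), and that in DKO against Smarca1 KO was 0.63 ± 0.24 (adjusted p = 0.207). Ly6h, which limits surface receptors, changed by 0.57 ± 0.14 against WT (adjusted p = 0.0278), and its DKO and Smarca1 KO libraries overlapped, at 103.2 to 120.6 and 79.3 to 125.6 CPM. Lypd1, also called Lynx2, had 18.1, 15.8 and 17.4 CPM in WT, 15.4, 15.7 and 18.8 in Smarca1 KO and 20.4, 25.6 and 22.5 in DKO. It rose in DKO against WT (0.42 ± 0.11, adjusted p = 0.0338) and was the 1 gene of the 12 that rose against Smarca1 KO (0.46 ± 0.11, adjusted p = 0.0427), where 1.73% of tested genes rose. Vsnl1, the gene of a calcium sensor that promotes surface delivery of Chrna4 receptors, had 3.79, 3.81 and 4.58 CPM in WT, 6.29, 4.37 and 11.0 in Smarca1 KO and 6.22, 11.3 and 11.9 in DKO. Its DKO libraries lay above those of WT and overlapped with Smarca1 KO. It rose by 1.27 ± 0.34 on the log2 scale against WT (adjusted p = 0.0387) and lay at 0.45 ± 0.32 against Smarca1 KO (adjusted p = 0.521). It was named after its values were seen, to complete the count of 5.

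Ric3, a chaperone of Chrna7 receptors, was at 35.2 to 42.2 CPM in Smarca1 KO, 36.6 to 41.2 in WT and 32.2 to 36.6 in DKO, with a log2 fold change of -0.14 ± 0.081 against WT (adjusted p = 0.269). It is named beside Chrna7, after its values were seen. In Smarca1 KO against WT none of the 12 was called by edgeR's quasi-likelihood test, 6 were under 0.05 before adjustment and DESeq2 called 1. Leaving out DKO replicate 3 or any 1 of the WT libraries ended the call of Lynx1 against WT (adjusted p 0.0627 to 0.0733). Leaving out any of those 4 libraries or DKO replicate 2 ended those of Ly6h (0.0808 to 0.104), Lypd1 (0.0825 to 0.129) and Vsnl1 (0.101 to 0.130) against WT. The call of Lypd1 against Smarca1 KO was lost in 11 of 17 alternative fits, and 18.1% of its 31-base words occur in other genes.

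**Figure D5:**
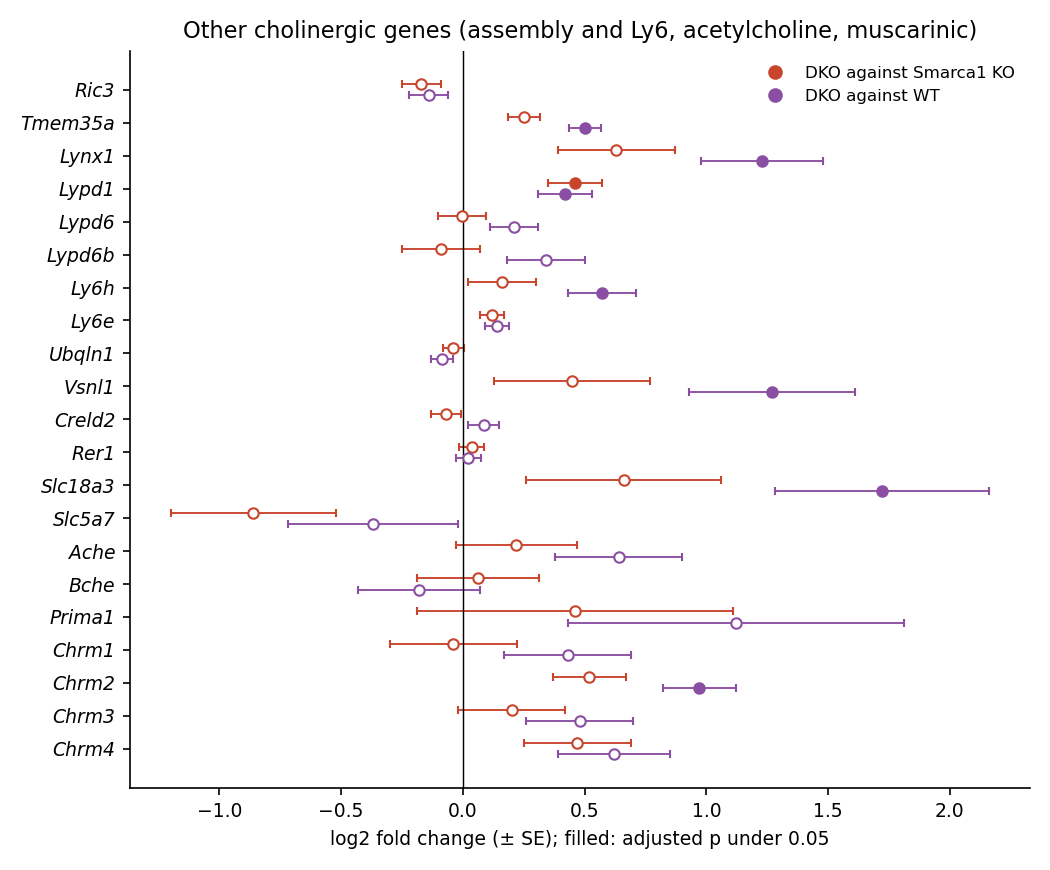
Log2 fold change (horizontal axis) with SE of the tested genes of receptor assembly and Ly6 proteins, of acetylcholine handling and of muscarinic receptors, for DKO against Smarca1 KO and DKO against WT. Filled points have an adjusted p under 0.05: 7 against WT, among them Tmem35a at 0.50 and Chrm2 at 0.97, and 1 against Smarca1 KO, Lypd1 at 0.46.

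Genes that make, move and break down acetylcholine were near the floor of detection, apart from the enzymes that degrade it. Chat, the enzyme that makes acetylcholine, had 3 to 14 counts in a library and was not tested. Of 5 tested genes of this list 1 rose in DKO against WT, where 5.61% of all tested genes rose. This was Slc18a3, the vesicular acetylcholine transporter (log2 fold change 1.72 ± 0.44, adjusted p = 0.0360). It rests on 3, 8 and 9 counts in WT and 19, 21 and 35 in DKO, and leaving out any 1 DKO or WT library, or both libraries high in meningeal markers, ended the call (adjusted p 0.0564 to 0.122). Ache, acetylcholinesterase, stood at 2.61 to 2.77 CPM in WT and 3.30 to 4.95 in DKO (0.64 ± 0.26, adjusted p = 0.122), a gene named after its values were seen. None of the 5 was called in DKO against Smarca1 KO or in Smarca1 KO against WT by edgeR's quasi-likelihood test. Before adjustment 1 and 1 were under 0.05 there, and DESeq2 called 0 and 0.

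Of the muscarinic receptors, the G protein-coupled receptors for acetylcholine, 4 of 5 were tested and 1 was called. Chrm2, a receptor coupled to inhibitory G proteins, had 2.15, 2.70 and 2.29 CPM in WT, 2.96, 3.24 and 3.53 in Smarca1 KO and 4.19, 4.92 and 4.81 in DKO. The 3 groups did not overlap, in the same order as for Chrna3. Its log2 fold change was 0.97 ± 0.15 in DKO against WT (adjusted p = 0.00594) and 0.52 ± 0.15 in DKO against Smarca1 KO (adjusted p = 0.0824), and it kept its call against WT in 16 of 17 alternative fits, all but the one with a Y-linked covariate. None of the 4 was called in DKO against Smarca1 KO or in Smarca1 KO against WT by edgeR's quasi-likelihood test, where 1 and 1 were under 0.05 before adjustment and DESeq2 called 1 and 0.

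The nearest relatives of nicotinic subunits are the other Cys-loop channels, which are the receptors for GABA and glycine and the serotonin-gated channel. Of 19 tested genes 2 rose in DKO against WT (10.5%) and none fell, where 5.61% of all tested genes rose and 6.35% fell. The median log2 fold change of the 19 was 0.376 there, beside 0.008 over all genes. It was 0.333 in Smarca1 KO against WT and 0.134 in DKO against Smarca1 KO, beside 0.010 and 0.004 over all genes. Gabra4 stood at 3.99 to 5.10 CPM in WT and 8.23 to 8.68 in DKO (0.88 ± 0.21, adjusted p = 0.0274). Gabra5 stood at 4.64 to 5.68 CPM in WT and 7.66 to 11.3 in DKO (0.86 ± 0.24, adjusted p = 0.0453). Both were also high in Smarca1 KO replicate 3, at 8.34 and 11.9 CPM, and both calls were lost without DKO replicate 2, DKO replicate 3 or any 1 WT library (adjusted p 0.0725 to 0.151). None of the 19 was called in DKO against Smarca1 KO or in Smarca1 KO against WT by edgeR's quasi-likelihood test, where 2 and 6 were under 0.05 before adjustment and DESeq2 called 0 and 0.

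Of 10 genes for factors known to act on the promoters of the cluster, 8 were tested. In DKO against WT 2 of the 8 fell, where 6.35% of all tested genes fell. Sp1, which binds GC boxes such as those printed above, fell in DKO against WT, from 122.3 to 124.1 CPM to 95.0 to 106.5 (log2 fold change -0.30 ± 0.056, adjusted p = 0.0129), with Smarca1 KO at 99.9 to 111.7. Its call was lost without DKO replicate 3 (adjusted p = 0.0536) or WT replicate 1 (0.0530). Jun, which has been described with Sp1 at the Chrnb4 promoter, fell from 119.8 to 129.7 CPM in WT to 95.6 to 97.1 in DKO (-0.38 ± 0.054, adjusted p = 0.00436), with Smarca1 KO at 99.2 to 114.1. None of the 8 was called in DKO against Smarca1 KO or in Smarca1 KO against WT by edgeR's quasi-likelihood test, where 3 and 3 were under 0.05 before adjustment and DESeq2 called 1 and 1.

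Markers of the cells that could carry these receptors were read beside them. Defining genes of peripheral ganglion neurons, the classic site of Chrna3 and Chrnb4, were at or near 0: Tlx3, Hand2, Dbh and Pou4f2 were under 1 CPM in each library. The 9 genes of that list summed to 37.7 to 44.3 CPM in WT, 44.4 to 51.0 in Smarca1 KO and 42.7 to 48.2 in DKO. Most of that sum is Isl1, at 33.6 to 45.5 CPM, and Prph, the gene of peripherin, fell in DKO against WT (log2 fold change -1.04, adjusted p = 0.0386). The Prph call was lost when any 1 DKO or WT library was left out (adjusted p 0.0620 to 0.137). Of the habenular genes Gpr151, Tac2 and Irx1 were under 1 CPM in each library. Pou4f1, a factor of habenular and sensory neurons, rose in DKO against Smarca1 KO (1.39, adjusted p = 0.0150) from 0.474 to 0.921 CPM to 1.68 to 1.98. It stood at 1.18 to 1.46 CPM in WT, and the 12 habenular and diencephalic genes summed to 101.3 to 108.7 CPM in WT, 84.6 to 107.6 in Smarca1 KO and 89.6 to 108.9 in DKO. The Pou4f1 call was lost without DKO replicate 2 (adjusted p = 0.0571) or DKO replicate 3 (0.0628), and without both libraries high in meningeal markers.

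The summed levels of several cell type lists were set beside Chrna3. The 8 microglial markers summed to 36.3 to 38.5 CPM in WT, 37.6 to 44.6 in Smarca1 KO and 49.0 to 61.4 in DKO, so that each DKO library lay above all others. Of these 8, 2 rose in DKO against Smarca1 KO (Cx3cr1 and Trem2) and 3 against WT (Cx3cr1, C1qa and Trem2), by 0.66 to 0.81 and 0.77 to 1.15 on the log2 scale. The call of Trem2 against Smarca1 KO was lost in 15 of 17 alternative fits, among them those without any 1 of the 9 libraries (adjusted p 0.0571 to 0.134), and that of Cx3cr1 without both libraries high in meningeal markers (0.0555). Against WT, Trem2 lost its call without DKO replicate 2, DKO replicate 3, WT replicate 1 or WT replicate 2 (0.0528 to 0.0804). The 8 markers of Cajal-Retzius cells, early neurons of the marginal zone, summed to 389.4 to 418.9 CPM in WT, 359.3 to 501.8 in Smarca1 KO and 482.2 to 516.6 in DKO, which overlapped with Smarca1 KO. Of the 8, 3 rose in DKO against WT (Trp73, Calb2 and Ndnf) and none against Smarca1 KO by edgeR's quasi-likelihood test, where 3 were under 0.05 before adjustment and DESeq2 called 1. Leaving out any single DKO or WT library ended the Trp73 call (adjusted p 0.0724 to 0.160), and those of Ndnf and Calb2 ended without any of 5 and of 3 such libraries (0.0518 to 0.108). The 8 markers of ventral interneurons summed to 797.1 to 914.6, 881.2 to 943.8 and 927.1 to 1128 CPM, again with DKO overlapping Smarca1 KO, and 2 of the 8 rose against WT (Dlx1 and Dlx5). The Dlx1 call was lost without any of 6 single libraries (0.0524 to 0.152) and that of Dlx5 without any of 4 (0.0783 to 0.0891). The 8 markers of the cortical hem and choroid plexus summed to 210.7 to 292.1, 282.6 to 380.9 and 289.9 to 545.4 CPM, where DKO overlapped with both other groups, and 1 of the 8 rose against WT (Ttr). The Ttr call was lost without DKO replicate 1, DKO replicate 3 or any 1 WT library (0.0738 to 0.136). The 8 genes of intermediate progenitors summed to 947.7 to 979.9 CPM in WT, 802.3 to 973.3 in Smarca1 KO and 782.8 to 804.6 in DKO, where DKO lay below WT and overlapped with Smarca1 KO. Of the 8, 4 fell against WT and 3 against Smarca1 KO. Among the latter, Mfap4 lost its call without any of 7 single libraries (0.0532 to 0.113) and Neurog1 without any of 3 (0.0624 to 0.0665), and against WT Mfap4 lost it without WT replicate 2 or 3 (0.0530 and 0.0557). The part of any of these cells in the Chrna3 difference, or in that of Tmem35a and Chrm2, was not tested.

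Projection neuron markers were read beside Chrna7. The 11 genes summed to 4516 to 4862 CPM in WT, 4712 to 6092 in Smarca1 KO and 4718 to 5619 in DKO. Fezf2, a factor of deep-layer projection neurons, fell relative to Smarca1 KO (log2 change -0.51, adjusted p = 0.00550) and relative to WT (-0.45, adjusted p = 0.00695), and Stmn2 rose against WT (0.44, adjusted p = 0.0279). The other genes of the 11 were not called. The Stmn2 call was lost without DKO replicate 2, DKO replicate 3 or any 1 WT library (adjusted p 0.0896 to 0.107). The part of projection neurons in the Chrna7 values was not tested.

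Of 9 genes of radial glia, the progenitors of the cortical wall, 4 were called in DKO against WT, or 44.4% where 12% of tested genes were: Slc1a3 and Fabp7 rose and Hes1 and Hes5 fell. Nothing is read from this share, as the list was chosen with earlier results of these data known. Before adjustment 8 of the 9 were under 0.05, and DESeq2 called 8. Against Smarca1 KO edgeR's quasi-likelihood test called none, with 1 under 0.05 before adjustment and 1 by DESeq2. The 9 genes summed to 2434 to 2497 CPM in WT, 2081 to 2343 in Smarca1 KO and 2222 to 2474 in DKO. The calls of Fabp7, Hes1 and Hes5 were lost without any of 4, 5 and 6 single DKO or WT libraries (adjusted p 0.0507 to 0.141). Of 12 habenular and diencephalic genes, Nhlh2 fell against WT, as did Hba-a1 among 8 blood genes and Ddx3y among 4 Y-linked genes. Each of these 3 calls was lost without any of 5 to 7 single libraries (0.0552 to 0.155). Of the 8 meningeal and the 8 endothelial and mural genes none was called in either DKO comparison, with 0 and 1 at an unadjusted p under 0.05 against Smarca1 KO, 0 and 0 against WT, and 0 by DESeq2. Over all 13 cell type lists no gene was called in Smarca1 KO against WT by edgeR's quasi-likelihood test, while 21 of 100 tested were under 0.05 before adjustment and DESeq2 called 6.

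Genes whose pattern over the 9 libraries was most like that of each subunit were listed by the Pearson correlation of log2 CPM, among the 12339 tested genes whose mean log2 CPM reached 1. The 9 libraries fall into 3 groups, so a high value here describes a pattern and carries no test. For Chrna3 the 5 most alike were Selenom (r = 0.990), Deptor (0.977), Itga3 (0.971), Derl1 (0.970) and Pspc1 (0.969). Deptor, which encodes an inhibitor of mTOR, had 2.25, 1.98 and 1.99 CPM in WT, 2.42, 2.29 and 2.33 in Smarca1 KO and 3.97, 3.95 and 4.07 in DKO. Itga3, an integrin alpha gene, had 12.1, 10.7 and 13, then 15.2, 11.7 and 16.2, then 23.7, 25.0 and 27.6 CPM. Chrna3 had the larger fold difference, 2.62-fold in DKO against Smarca1 KO where Itga3 had 1.77-fold, Deptor 1.70-fold and Selenom 1.38-fold.

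For Chrna5 the most alike genes were B4galt3 (r = 0.952) and Cnst (0.943), and for Chrnb4 Syne4 (0.941) and Pdhx (0.933). For Chrna4 they were Tmem255a (0.985), which like Chrna4 was lowest in Smarca1 KO replicate 2, at 1.23 CPM, and Peg3 (0.944). For Chrna7 they were Sox5 (0.977), a factor of deep-layer projection neurons, and Srl (0.976). Sox5 lay at 178.3 to 207.6 CPM in WT, 183.5 to 252.3 in Smarca1 KO and 146.8 to 188.2 in DKO. For Chrnb2 they were Rimbp2 (0.995) and Syt16 (0.991), genes of presynaptic proteins.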

How the data were processed

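Estimated counts, TPM and effective lengths per transcript were deposited by the authors in 9 tables, 1 per library, made with Salmon 1.4.0; mm10 and DESeq2 (no version) are the other names in the submitters' processing notes. What index, strand setting and filters were used is not given in the sources used here. TPM, scaled to transcript length, were used as deposited by the authors, for levels between genes. Estimated counts were summed over transcripts to GENCODE M21 genes and rounded: 115977 of 116546 transcripts matched, and the 569 others (0.104% to 0.116% of reads) were left out. Libraries were grouped by their genotype labels. Depth was 27466225 to 46007718 counts per library.

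The 6 subunit genes and all gene lists were chosen with earlier results of these data known. One model of all 9 libraries was fitted with edgeR 4.0.16 (quasi-likelihood test, TMM, filter on low counts) in R 4.3.3, with Benjamini-Hochberg adjustment over 15773 genes and a call at an adjusted p under 0.05. The SE of a log2 fold change is its size divided by the root of the F statistic. Beside the subunits, the genes named were those called in each list (up to 4 by smallest p, or the 1 with the smallest p where none was called), called genes within 500 kb, the 2 nearest tested genes on each side of the cluster, and the most alike genes by Pearson correlation (5 for Chrna3, 2 for each other subunit). The lists were other nicotinic subunits, assembly and Ly6 genes, acetylcholine handling, muscarinic receptors, other Cys-loop channels, promoter factors, the ISWI ATPases, Y-linked genes and 13 cell type lists. The script was tested on simulated data. The 17 alternatives were DESeq2 1.42.0, its size factors in edgeR, no filter, the 2 groups compared alone, effective-length offsets, the replicate number as a block, a Y-linked covariate (mean log2 CPM of 4 Y-linked genes), both libraries high in meningeal markers left out, and each of the 9 libraries left out. Promoter sequences are from RefSeq (GRCm38.p6). Results of a few listed genes are not reported here.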

Additional observations from a re-analysis of the deposited data

How the results depend on the processing

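The Chrna3 difference kept its direction under all 17 alternatives, at log2 fold changes of 1.25 to 1.55 (DKO against Smarca1 KO) and 1.80 to 2.01 (DKO against WT, lowest with effective-length offsets). Chrna3 was chosen with these contrasts known, so its adjusted p under the alternatives is a description and lends it no support. That adjusted p was under 0.05 in 16 of the 17 in each of these comparisons. In the remaining 1 it was 0.204 against Smarca1 KO and 0.192 against WT.

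The 3 groups account for a share (R squared) of 0.771 of the Y-linked covariate. Its range was narrow, at 5.81 to 5.87 log2 CPM in the DKO libraries and 5.90 to 6.01 in the others. Each DKO library thus lay below all others, so this fit cannot tell the covariate from the DKO genotype. With the covariate the number of genes called was 11 against Smarca1 KO and 6 against WT, list genes called 1 and 1, and neighbours 0 and 0. Chrna5 was then at -0.408 and 0.0458, Chrnb4 at -0.37 and 0.000887 and Chrnb2 at -0.12 and 0.0548 in DKO against Smarca1 KO and against WT, Chrna4 was at 8e-05 against WT, and Gabra5 (-0.00117) and Hes5 (0.0204) changed sign against WT. With 1 library left out Chrna5 ran from 0.968 to 1.88 in DKO against WT and from 0.286 to 1.19 in Smarca1 KO against WT, lowest without WT replicate 2 and highest without WT replicate 1.

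Genes called in DKO against Smarca1 KO (692) became 1183 with DESeq2, 181 with the 2 groups alone, 389 with effective-length offsets, 398 without both libraries high in meningeal markers and 286 to 795 with 1 library left out. Against WT (1887) they became 2869 with DESeq2, 3443 with the 2 groups alone and 450 to 3178 with 1 library left out. In Smarca1 KO against WT (53) they became 706 with DESeq2, 90 without the filter, 29 with the replicate block, 607 without both meningeal libraries and 14 to 72 with 1 library left out.

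List genes called in DKO against Smarca1 KO (9) became 19 with DESeq2, 4 with the 2 groups alone and 4 to 15 with 1 library left out. Against WT (35) they became 54, 63, 64 without both meningeal libraries, and 12 to 58. In Smarca1 KO against WT (0) they became 8 with DESeq2, 20 without both meningeal libraries and 0 to 2 with 1 library left out. Neighbours called in DKO against Smarca1 KO (3) became 6 with DESeq2, and 1 without the filter, with the 2 groups alone and with the replicate block, and 1 to 3 with 1 library left out. Against WT (4) they became 7 with DESeq2, 8 with the 2 groups alone, 2 with effective-length offsets, 8 without both meningeal libraries and 1 to 8. In Smarca1 KO against WT (0) they became 2 with DESeq2 and 1 without both meningeal libraries. The cause of these shifts was not tested.

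The model of all 9 libraries did not pair them by replicate number. Deviations of same-numbered libraries correlated at -0.038 to 0.324 over 9 pairs and those of others at -0.238 to 0.155 over 18. The highest value was for Smarca1 KO replicate 1 with DKO replicate 1, both highest in meningeal markers, so this check does not settle pairing. At 11 to 91 counts per library for Chrna5 and 25 to 67 for Chrnb4, depth limits what can be seen for both.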
